A study of Mus musculus with 8 samples.

Results

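The contactins and the contactin-associated proteins are 2 families of neuronal adhesion molecules, and 9 of their genes are described here: Cntn1, Cntn2, Cntn3, Cntn4, Cntn5, Cntn6, Cntnap1, Cntnap2 and Cntnap4. They were taken by symbol from the 55341 genes of the count files, and all 9 were found. The RNA came from sorted nuclei of GABAergic cells, the inhibitory neurons of the cortex, in juvenile mice whose mothers had been given propylthiouracil (PTU), a blocker of thyroid hormone synthesis, during gestation. Each library came from 1 cortex. Mice 9 to 12 (PTU, n = 4) were hypothyroid. Mice 13 to 16 (PTU+TH, n = 4) were made hypothyroid likewise and were given thyroid hormone (TH) by intraperitoneal injection, 24 h ahead of brain collection. Both groups carried a Cre-dependent reporter of a nuclear fluorescent protein, by which nuclei were sorted. The labels name neither the Cre driver, the exact age, the form or dose of TH, nor an injection in the PTU group, and no euthyroid group was analysed here. The comparison therefore asks how nuclear RNA of hypothyroid neurons differed a day after TH was given.

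Contactins are immunoglobulin-superfamily proteins held on the outer face of the membrane by a lipid anchor, so they signal through partners in the same or the facing cell. Contactin-associated proteins cross the membrane once and resemble neurexins. Cntn1 with Cntnap1 builds the paranodal junction beside the node of Ranvier, and Cntn2 with Cntnap2 gathers Kv1 potassium channels in the neighbouring juxtaparanode. Cntn3 to Cntn6 bind the receptor phosphatase Ptprg, and Cntnap4 is known from the output synapses of cortical interneurons.

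Most of these genes are very long, and RNA in the nucleus is largely unspliced. Their bodies measured 20.2 kb for Cntnap1, 33.8 kb for Cntn2, 290.8 kb for Cntn1, 312.7 kb for Cntnap4, 370.6 kb for Cntn6, 410.4 kb for Cntn3, 1021.7 kb for Cntn4, 1243.9 kb for Cntn5 and 2244.9 kb for Cntnap2 in the GENCODE M21 annotation of build GRCm38. Cntnap2 (chromosome 6, 45059357 to 47304213) ranked 5 in length among the 17355 genes tested, Cntn5 ranked 27 and Cntn4 ranked 57. Cntn3 (chromosome 6, 102162655 to 102573101), Cntn6 (104492790 to 104863406) and Cntn4 (105677660 to 106699310) follow each other on the same chromosome. The others lie apart, Cntn1 on chromosome 15 (92051165 to 92341967), Cntn2 on chromosome 1 (132509427 to 132543256), Cntn5 on chromosome 9 (9660891 to 10904775), Cntnap1 on chromosome 11 (101170523 to 101190724) and Cntnap4 on chromosome 8 (112570043 to 112882717). The share of the body that no other gene overlaps was 82.1% in Cntn3 and 83.8% in Cntnap1, and at least 97.3% in the other 7.

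The sequences before a start site of Cntn2, Cntn3 and Cntn4 are shown because these genes had the largest positive fold changes of the 9. Each stretch holds the 80 bases before a RefSeq start (build GRCm38.p6), read 5′ to 3′ on the strand of the gene, with every CG dinucleotide in capitals. The stretches lie at chr1:132542941-132543020 on the minus strand, chr6:102464668-102464747 on the minus strand and chr6:106118685-106118764 on the plus strand, the last being the first of 2 RefSeq starts of Cntn4. All 3 stretches lie inside the GENCODE bodies, which begin further upstream than these RefSeq starts.
Cntn2: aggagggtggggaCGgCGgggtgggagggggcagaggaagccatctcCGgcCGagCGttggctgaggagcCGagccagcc
Cntn3: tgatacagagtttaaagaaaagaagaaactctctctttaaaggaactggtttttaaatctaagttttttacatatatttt
Cntn4: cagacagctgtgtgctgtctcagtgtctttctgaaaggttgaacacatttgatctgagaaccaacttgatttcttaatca
The Cntn2 stretch holds 6 CG dinucleotides and those of Cntn3 and Cntn4 hold 0. Over the 250 bases before the start, G and C made up 61.2% in Cntn2, 26.4% in Cntn3 and 44.4% at this start of Cntn4. The base composition of Cntn4 depended on the start taken, since these 250 bases held 2 CG dinucleotides at the start shown and 12 at the other (50.0% G and C), against 10 in Cntn2. The letters AGGTCA, the half-site that thyroid hormone receptors recognise, were searched on both strands of those 250 bases. They were in 0 of 14 entries for 9 genes of both families (7 of the 9 listed genes, Cntnap3 and Cntnap5b) and in 14.0% of 32851 mouse promoters of the same length. The direct repeat of this half-site with a spacer of 4 bases, whose copies also count as half-sites, was in 0.0152% of them and in 0 of the 14 entries. The 2 entries of Cntn4 share bases, and so do the 2 of Cntn5, so the entries are not independent. Some lie far inside the gene body, such as an entry of Cntnap2 at chr6:47244146-47244395 in a body from 45059357 to 47304213.

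The libraries held 21.8 to 29.1 M counts. They differed in how much of the RNA came from long genes, and this touches the long genes described here. Taking each gene's log2 CPM (read counts brought to a common library size) minus its mean over the 8 libraries, the median over 59 tested genes of 1 Mb or more was -0.55 in mouse 9 and -0.29 in mouse 10, against 0.42 in mouse 11 and 0.26 in mouse 12. In the PTU+TH group it was -0.12 in mouse 13, -0.10 in mouse 14, 0.08 in mouse 15 and 0.31 in mouse 16. In genes under 10 kb the median had the other sign in 7 libraries (0.19, 0.03, -0.11 and -0.10 in mice 9 to 12, 0.06 and 0.02 in mice 13 and 14, and -0.06 in mouse 16), while mouse 15 had 0.09 there. The PTU group thus held both extremes, and the group means in the longest class were -0.04 and 0.04. The labels name no batch, and what differed between these libraries was not tested. Mice 15 and 16 had 0 counts of 4 Y-linked genes, which summed to 7960 to 11548 counts in each of the other 6 libraries. The labels do not give the sex of the mice.

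**Figure D1:**
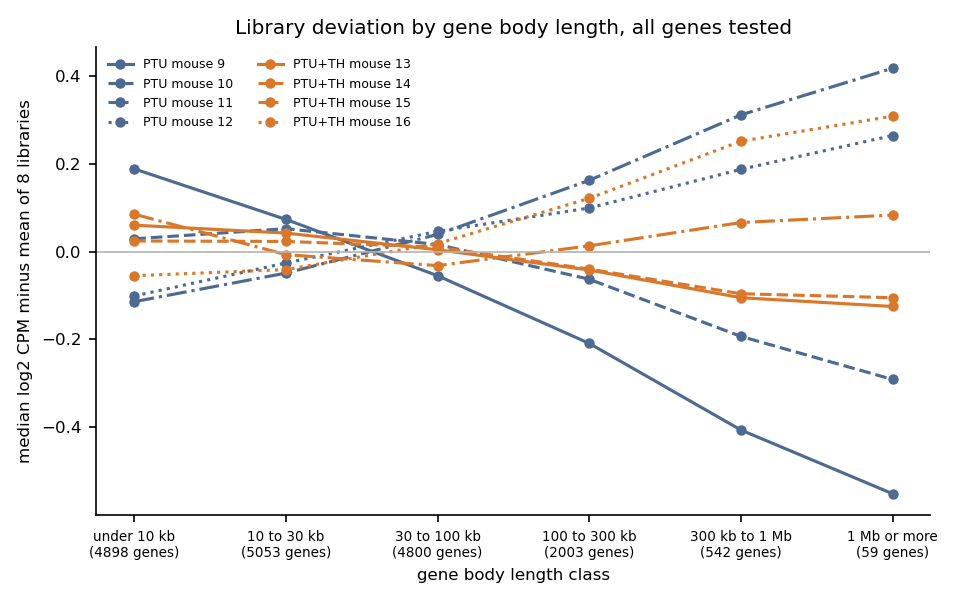
Median deviation of each library (log2 CPM minus the mean of the 8 libraries, y axis) for all genes tested in 6 classes of gene body length (x axis, with the number of genes). Lines are the 4 PTU and 4 PTU+TH libraries; mouse 9 falls to -0.55 and mouse 11 rises to 0.42 in genes of 1 Mb or more.

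Cntn2 was higher a day after TH, and it was the 1 listed gene of 9 that passed the test over all genes. Its protein, also called axonin, guides axons and forms the juxtaparanodal complex. It stood at 59.2, 58.5, 64.2 and 65.1 CPM in PTU mice 9 to 12 and at 86.5, 89.8, 92.04 and 79.7 CPM in PTU+TH mice 13 to 16. All 4 PTU+TH libraries lay above all 4 PTU libraries, with a gap wider than the spread within either group. The means were 61.7 ± 3.42 and 87.0 ± 5.40 CPM (SD, n = 4 each), with a log2 fold change of 0.50 (SE 0.08; edgeR quasi-likelihood test with Benjamini-Hochberg adjustment over 17355 genes, adjusted p = 0.00672). Of all genes tested, 2.12% were called at an adjusted p under 0.05, 1.49% as higher and 0.634% as lower. The call held with each library left out in turn (adjusted p from 0.00983 to 0.0317). In the 6 libraries with Y-linked counts the log2 fold change was 0.52, with an adjusted p of 0.0741 from edgeR, and 0.318% of genes were called there. With the length offset described further on, the same 6 libraries gave 0.52 and an edgeR adjusted p of 0.0289.

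Oligodendrocytes also express Cntn2, so their markers are given beside it. The summed level of 9 oligodendrocyte markers ran from 97.3 to 124 CPM in PTU and from 95.2 to 196 CPM in PTU+TH, and of 8 tested 0 were called with edgeR, DESeq2 or limma voom, while 1 had an unadjusted edgeR p under 0.05. Mouse 14 had the lowest sum of the 8 libraries (95.2 CPM) and the second highest Cntn2 level of the group, at 89.8 CPM. Mouse 15 had the highest of both. The RNA was bulk RNA of sorted nuclei, so more nuclei of a type that holds a transcript and more transcript per nucleus cannot be told apart.

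The genes whose levels over the 8 libraries were most like those of Cntn2 were Slc36a1 (Pearson r = 0.997), Gm5512 (0.979) and Ppef2 (0.977), out of 15229 tested genes averaging 1 CPM or more. The libraries share their scaling and the split into groups, so these values describe likeness only. Slc36a1 went from 25.9 ± 1.41 to 37.2 ± 2.21 CPM (SD, n = 4 each).

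Cntn3 had the largest positive log2 fold change of the 9 genes but just missed the test. It stood at 142.9, 162.2, 222.6 and 215.2 CPM in PTU mice 9 to 12 and at 264.0, 274.2, 264.6 and 295.8 CPM in PTU+TH mice 13 to 16. The groups did not overlap, but PTU mice 9 and 10 lay well below mice 11 and 12, in the order of their long-gene levels. The means were 185.7 ± 39.2 and 274.7 ± 14.8 CPM (SD, n = 4 each), with a log2 fold change of 0.56 (SE 0.14, with an edgeR adjusted p of 0.0545). The adjusted p was 0.0492 without PTU mouse 9 and 0.0297 without PTU mouse 11, 0.0577 to 0.164 without any other library, and 0.389 without both mice 15 and 16.

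Cntn4, a contactin long studied in olfactory wiring, showed a difference of the same sign with a wider error. It stood at 577.0, 690.2, 835.3 and 761.9 CPM in the PTU libraries and at 889.4, 944.8, 983.8 and 1173 CPM in PTU+TH. All PTU+TH libraries again lay above all PTU libraries, with mouse 16 well above the other 3. The means were 716.1 ± 110.1 and 997.8 ± 123.3 CPM (SD, n = 4 each), with a log2 fold change of 0.48 (SE 0.16), which did not pass the edgeR test (adjusted p = 0.171).

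Cntnap1, the paranodal partner of Cntn1 and the lowest of the 9 genes in CPM, stood at 25.4, 29.2, 33.9 and 28.2 CPM in the PTU libraries and at 35.5, 39.1, 36.4 and 42.3 CPM in PTU+TH. Its groups did not overlap either, though PTU mouse 11 came close to PTU+TH mouse 13. The log2 fold change was 0.40 (SE 0.11, with an edgeR adjusted p of 0.0939). With Cntn2, Cntn3 and Cntn4, this made 4 of the 9 genes without overlap between the groups, all higher in PTU+TH. Over all genes tested, 8.71% did not overlap, 4.68% being higher in PTU+TH and 4.03% lower. At an adjusted p under 0.1, Cntn2, Cntn3 and Cntnap1 were called, beside 3.46% of all genes. These 3 and Cntn4 were called by DESeq2 (4.31% of all genes) and by a fit with 1 surrogate variable (4.14% of all genes). With library totals as the only scaling, Cntn2, Cntn3 and Cntn4 were called (1.48% of all genes).

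The other 5 genes overlapped between the groups and did not pass the test. Cntn1, the ubiquitous neuronal contactin, stood at 437.8, 456.4, 603.3 and 554.0 CPM in the PTU libraries and at 453.8, 499.4, 553.8 and 602.5 CPM in PTU+TH (log2 fold change 0.04, SE 0.14). Cntn6, which marks subsets of cortical and cerebellar neurons, stood at 315.4, 378.4, 513.9 and 504.9 CPM against 449.9, 520.9, 469.3 and 553.4 CPM (log2 fold change 0.22, SE 0.16). In both genes the spread among the PTU mice was as large as the distance to the PTU+TH mice.

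Among the PTU libraries the 2 longest genes were the most variable of the 9. Cntnap2, the neurexin-like partner of Cntn2, stood at 2303, 2704, 5036 and 4611 CPM in the PTU libraries and at 3279, 3592, 3614 and 4511 CPM in PTU+TH. Cntn5, a contactin of the auditory and visual pathways, stood at 1638, 1938, 3607 and 3379 CPM in the PTU libraries and at 2122, 2269, 2310 and 3100 CPM in PTU+TH. In both, mice 9 and 10 were the lowest 2 of the PTU group and mice 11 and 12 were above every PTU+TH library. The log2 fold changes were 0.03 (SE 0.27) for Cntnap2 and -0.11 (SE 0.26) for Cntn5, both with an error several times that of Cntn2.

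With 1 library left out, the log2 fold change ran from -0.13 to 0.23 in Cntnap2, from -0.27 to 0.08 in Cntn5 and from -0.03 to 0.13 in Cntn1, so none of these had a stable sign. It ran from 0.10 (without mouse 9) to 0.32 in Cntn6.

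Cntnap4 stood at 247.3, 286.8, 408.0 and 383.2 CPM in the PTU libraries and at 246.0, 278.4, 251.2 and 334.1 CPM in PTU+TH, so that only PTU mice 11 and 12 lay above the whole PTU+TH range. The means were 331.3 ± 76.6 and 277.4 ± 40.4 CPM (SD, n = 4 each), which is a log2 fold change of -0.26 (SE 0.16, with an edgeR adjusted p of 0.592). The fold change was -0.14 without PTU mouse 11 and -0.37 without PTU mouse 9.

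**Figure D2:**
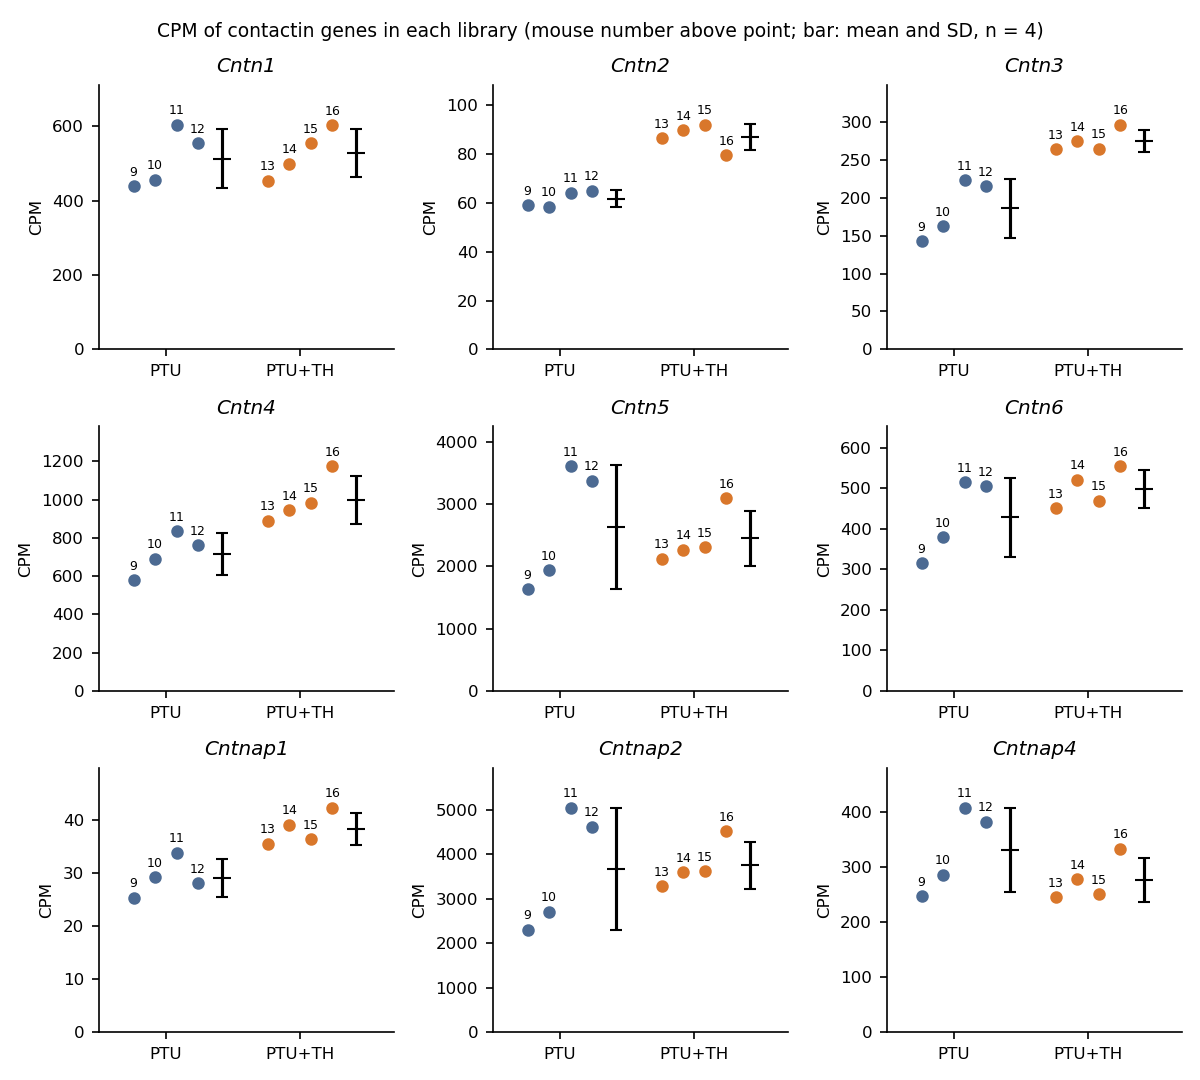
CPM (y axis, from 0) of the 9 genes in each PTU and PTU+TH library, with mouse numbers above the points and bars for the mean and SD (n = 4). Cntn2, Cntn3, Cntn4 and Cntnap1 show no overlap between groups, while Cntn5 and Cntnap2 split the PTU mice into 9 and 10 below and 11 and 12 above.

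With edgeR, 0 of the other 4 contactin-associated genes in the files were called (2 at an unadjusted p under 0.05, beside 12.8% of all genes, 0 with limma voom, and Cntnap5c with DESeq2 at an adjusted p of 0.0421), and 3 of them had negative fold changes. Cntnap5c stood at 248.5, 341.6, 476.9 and 437.9 CPM in the PTU libraries and at 205.1, 247.8, 234.6 and 306.4 CPM in PTU+TH (log2 fold change -0.60, SE 0.19, with an edgeR adjusted p of 0.161), and the adjusted p was 0.0136 without PTU mouse 9, 0.154 to 0.354 without any other library and 0.395 without both mice 15 and 16. Cntnap3 had means of 262.7 ± 49.3 and 203.8 ± 20.8 CPM (SD, n = 4 each), which is a log2 fold change of -0.36 (SE 0.14). Cntnap5a had a log2 fold change of 0.23 (0.07 without mouse 9, 0.12 without mouse 10, 0.09 without mouse 16 and 0.41 without mouse 11). Cntnap5b had one of -0.14, whose sign turned without mouse 11 (0.01) or mouse 12 (0.02). The median log2 fold change was 0.35 over the 6 contactins, 0.22 over the 9 listed genes, -0.25 over the other 4 contactin-associated genes and -0.01 over all genes tested. Over the 9 genes it was 0.10 without PTU mouse 9 and 0.33 in the fit with 1 surrogate variable.

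**Figure D3:**
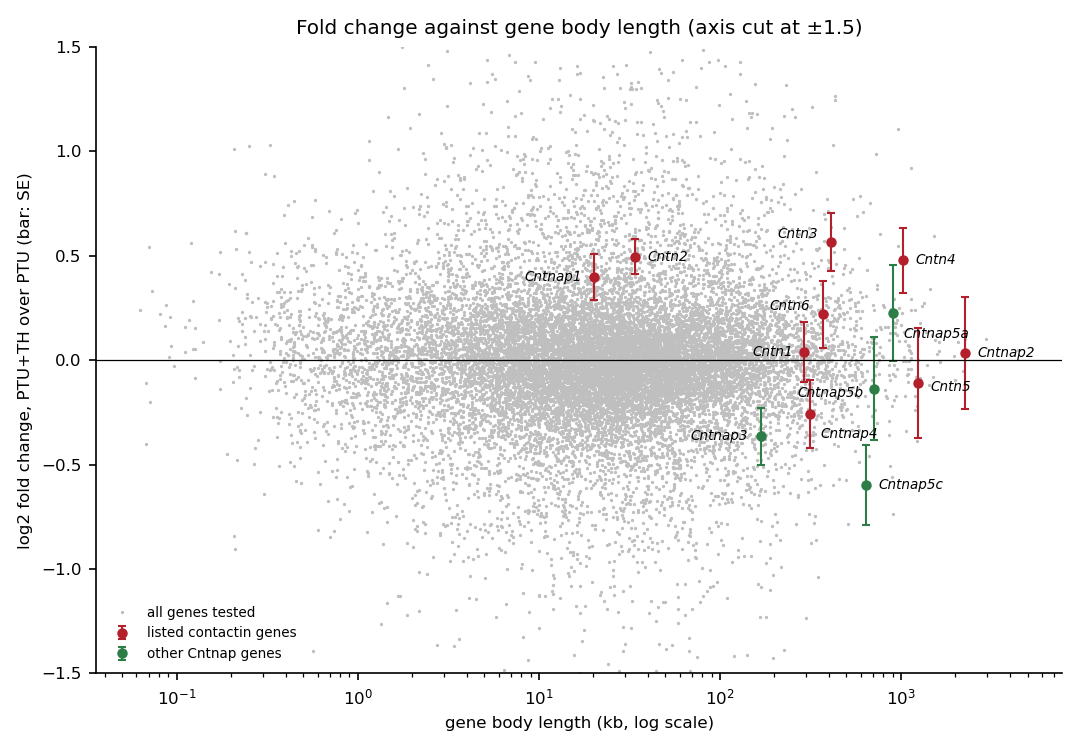
Log2 fold change of PTU+TH over PTU (y axis) against gene body length in kb (x axis, log scale) for all genes tested (grey), the 9 listed genes (red) and the other 4 Cntnap genes (green), with bars for the SE. The SE widens from 0.08 in Cntn2 to 0.27 in Cntnap2.

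The share of genes called differed with gene body length. Of 59 genes at 1 Mb or more, 0 were called with edgeR (2 at an unadjusted p under 0.05, 2 with DESeq2, Cntn4 being 1 of them, and 0 with limma voom), against 1.25% of 4898 genes under 10 kb and 4.39% of 2003 genes of 100 to 300 kb. A fit that took the length trend of each library out as an offset, so that a gene was set against other genes of its length in the same library, called 10.2% of the genes at 1 Mb or more, 9.96% of those from 300 kb to 1 Mb and 2.0% of those under 10 kb. The offset removes any trend over length whatever its source, a change with TH included, and it called 3.8% of all genes.

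With the length offset, the spread among the PTU libraries shrank in most of the long genes. The coefficient of variation among the PTU libraries went from 37.1% to 3.6% in Cntnap2, from 37.7% to 9.65% in Cntn5, from 21.1% to 3.66% in Cntn3, from 22.7% to 6.0% in Cntn6, from 23.1% to 7.04% in Cntnap4 and from 15.4% to 4.11% in Cntn1. It did not shrink in the short genes Cntn2 (5.54% to 6.82%) and Cntnap1 (12.2% to 14.5%), and it shrank little in Cntn4 (15.4% to 14.1%). Among the PTU+TH libraries it shrank from 12.4% to 6.1% in Cntn4, from 18.0% to 7.35% in Cntn5, from 14.2% to 8.74% in Cntnap2, from 12.3% to 6.48% in Cntn1 and from 14.6% to 11.6% in Cntnap4. There it grew from 5.4% to 8.78% in Cntn3, from 9.5% to 11.4% in Cntn6, from 7.94% to 10.9% in Cntnap1 and from 6.21% to 6.43% in Cntn2. Cntnap2 went from a log2 fold change of 0.03 to one of -0.01 with an SE of 0.08, and the other 8 genes kept the sign of theirs.

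Cntn2, Cntn3 and Cntn4 passed the test in this fit as higher in PTU+TH, beside 2.33% of all genes. The adjusted CPM of Cntn3 were 183.8, 179.4, 184.5 and 195.4 in PTU and 276.5, 301.3, 249.0 and 255.0 in PTU+TH. The 4 PTU libraries came to lie close together, well below all PTU+TH libraries (log2 fold change 0.54, SE 0.08, with an edgeR adjusted p of 0.00116), and the call held with each library left out in turn (adjusted p from 0.00212 to 0.00664). Cntn2 had nearly the same fold change as without the offset (0.50, SE 0.09, with an edgeR adjusted p of 0.00279).

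For Cntn4 the offset turned the order of the PTU libraries round. Mouse 9 had 821.1 and mouse 10 had 828.8 adjusted CPM, above the 635.4 of mouse 11 and the 657.8 of mouse 12. The PTU+TH libraries had 965.1, 1047, 907.9 and 942.6 adjusted CPM, all higher. The log2 fold change was 0.39 (SE 0.10, with an edgeR adjusted p of 0.0331). The call was lost without any 1 of mice 11, 12, 13, 14, 15 or 16 (adjusted p of 0.114, 0.12, 0.0778, 0.1, 0.0572 and 0.0838) and held without mouse 9 or mouse 10 (0.0166 and 0.0267). Without both mice 15 and 16 it was 0.151.

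Among the contactin-associated proteins, Cntnap5c and Cntnap3 were called lower with the offset, beside 1.47% of all genes. Cntnap5c stood at 335.6, 392.9, 379.3 and 388.2 adjusted CPM in the PTU libraries and at 218.4, 273.6, 218.6 and 255.3 in PTU+TH, which is a log2 fold change of -0.63 (SE 0.09, with an edgeR adjusted p of 0.00081), and each of the 8 fits with 1 library left out called it (adjusted p from 0.000429 to 0.00445). Cntnap3 had a log2 fold change of -0.37 (SE 0.10, with an edgeR adjusted p of 0.0397) and was lost without mouse 11, 12, 13, 15 or 16 (adjusted p of 0.119, 0.132, 0.113, 0.125 and 0.09) and without both mice 15 and 16 (0.315). Cntnap4 stood at 309.0, 310.5, 346.5 and 352.9 adjusted CPM in the PTU libraries and at 255.1, 304.6, 237.8 and 293.9 in PTU+TH. It did not pass the test (log2 fold change -0.27, SE 0.09, with an edgeR adjusted p of 0.138). Its groups no longer overlapped, while those of Cntnap1 now did (PTU mouse 11 at 35.04 and PTU+TH mouse 13 at 34.27 adjusted CPM). The 9 genes thus had 3 higher (Cntn2, Cntn3 and Cntn4) and 1 lower (Cntnap4) without overlap, beside 9.91% of all genes in either direction.

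**Figure D4:**
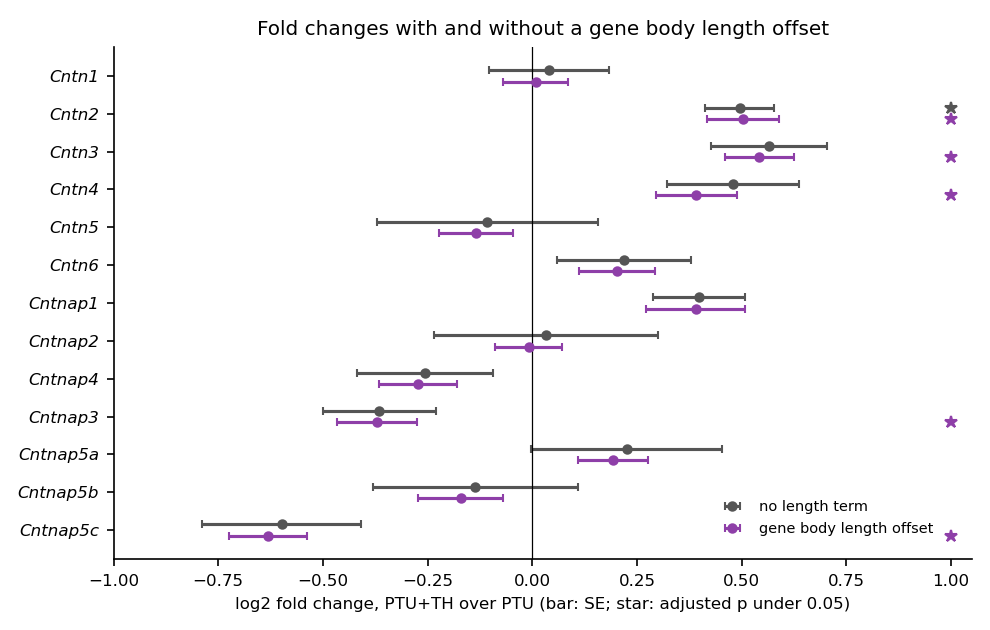
Log2 fold change of PTU+TH over PTU (x axis) of the 9 listed and the other 4 Cntnap genes, without a length term (grey) and with a gene body length offset (purple), with bars for the SE and stars for an adjusted p under 0.05. Stars stand at Cntn2 without the offset, and at Cntn2, Cntn3, Cntn4, Cntnap3 and Cntnap5c with it.

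Levels were compared between genes as CPM per kb of gene body, which suits counts that cover introns. In PTU the order of mean levels was Cntn5 (2.12 ± 0.801 CPM per kb; SD, n = 4), Cntn2 (1.82 ± 0.101), Cntn1 (1.76 ± 0.272), Cntnap2 (1.63 ± 0.606), Cntnap1 (1.44 ± 0.176), Cntn6 (1.16 ± 0.263), Cntnap4 (1.06 ± 0.245), Cntn4 (0.701 ± 0.108) and Cntn3 (0.452 ± 0.0956). Neighbours in this order overlapped in range except Cntn4 and Cntn3. In PTU+TH the order was Cntn2 (2.57 ± 0.16), Cntn5 (1.97 ± 0.354), Cntnap1 (1.9 ± 0.151), Cntn1 (1.81 ± 0.222), Cntnap2 (1.67 ± 0.236), Cntn6 (1.34 ± 0.128), Cntn4 (0.977 ± 0.121), Cntnap4 (0.887 ± 0.129) and Cntn3 (0.669 ± 0.0361). Here the ranges were apart between Cntn6 and Cntn4 and between Cntnap4 and Cntn3. These orders hold for the whole body only. Per kb of exons, Cntn5 (583 in PTU), Cntnap2 (358) and Cntn4 (84.4) came first, and Cntn2 (6.64) and Cntnap1 (4.96) came last. Per kb of the part free of other genes, Cntnap1 took a higher place, to 1.72 ± 0.21 in PTU, above Cntnap2 (1.68 ± 0.623), and to 2.27 ± 0.18 in PTU+TH, above Cntn5 (1.97 ± 0.355). Cntn3 stayed last, but at 0.424 to 0.661 in PTU its range overlapped that of Cntn4 (0.565 to 0.818), and at 0.784 to 0.878 in PTU+TH that of Cntnap4 (0.793 to 1.08). On this scale all neighbours overlapped in PTU, and in PTU+TH Cntn6 stayed apart from Cntn4 and lay narrowly below Cntnap2 (highest 1.49 against lowest 1.5). Cntnap2 held the most counts of the 9 genes in each library, but per kb of the body it lay in the middle.

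Cntn3, Cntn6 and Cntn4 share a stretch of chromosome 6 with Chl1, an adhesion molecule of the L1 family, at 103510586 to 103750211 between Cntn3 and Cntn6. The fold change of Chl1 had the other sign, with levels at 372.1, 362.3, 476.5 and 422.3 CPM in the PTU libraries and at 304.5, 311.9, 301.6 and 360.3 CPM in PTU+TH. The groups did not overlap, but PTU mouse 10 and PTU+TH mouse 16 nearly met. The log2 fold change was -0.35 (SE 0.12, with an edgeR adjusted p of 0.205), and with the length offset it was -0.38 (SE 0.08, with an edgeR adjusted p of 0.016). The latter call was lost without mouse 13, 15 or 16 (adjusted p of 0.051, 0.0566 and 0.0516) and without both mice 15 and 16 (0.188). Of 27 genes from Cntn3 to Cntn4, 6 could be tested, these 4 and the non-coding Gm5315 and Gm15631.

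The partners of the contactins were grouped by role, as 41 genes in 4 lists that were all tested. The lists were drawn up with earlier results of these data known. With edgeR, 4 of the 41 were higher and 1 was lower, with a median log2 fold change of 0.02, beside 1.49% higher and 0.634% lower over all genes tested.

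The juxtaparanodal and presynaptic Kv1 complex, the company of Cntn2 and Cntnap2, had 3 of 14 called, all higher, and 4 of the 14 had negative fold changes. Lgi3, a secreted ligand of Kv1-associated Adam proteins, stood at 61.6, 60.7, 60.0 and 57.5 CPM in the PTU libraries and at 91.2, 85.0, 99.99 and 89.8 CPM in PTU+TH (log2 fold change 0.61, SE 0.08, with an edgeR adjusted p of 0.00149). Its groups were widely apart, and it was called in all 18 other fits, the 6 libraries with Y-linked counts included (adjusted p = 0.0472). Kcna1, a pore subunit of Kv1 channels, went from 26.8 ± 2.14 to 38.9 ± 5.34 CPM (SD, n = 4 each), which is a log2 fold change of 0.54 (SE 0.12, with an edgeR adjusted p of 0.0301). Kcnab2, the cytoplasmic beta subunit, went from 61.9 ± 4.16 to 79.1 ± 1.43 CPM (log2 fold change 0.35, SE 0.08, with an edgeR adjusted p of 0.0385).

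With 1 library left out, and so 3 against 4, the calls of both channel subunits were often lost while the log2 fold changes kept their sign, from 0.47 to 0.62 in Kcna1 and from 0.32 to 0.39 in Kcnab2. Kcna1 was lost without mouse 10, 12, 14, 15 or 16 (adjusted p of 0.0874, 0.0617, 0.0654, 0.114 and 0.105), and Kcnab2 without mouse 10, 12, 13, 14, 15 or 16 (0.12, 0.0899, 0.0849, 0.0963, 0.0929 and 0.119). Both were called with the length offset (edgeR adjusted p of 0.0413 for Kcna1 and 0.0235 for Kcnab2). Of the 8 offset fits with 1 library left out, 3 called Kcna1 and 2 called Kcnab2. After the offset the groups of Kcna1 overlapped (PTU mouse 11 at 31.4 and PTU+TH mouse 13 at 31.02 adjusted CPM). Of the scaffold Dlg2 and the receptors Adam22 and Adam23, the genes of the list with the highest counts among those not called, the log2 fold changes were 0.02, 0.01 and -0.05. Other uncalled genes of the list, picked out after their values were seen, lay on both sides, with log2 fold changes of 0.36 for Kcna6 (SE 0.13) and 0.28 for Kcna2 (SE 0.13), both pore subunits, and of -0.21 for Lgi1 (SE 0.09) and -0.26 for the beta subunit Kcnab1 (SE 0.15). Lgi1, a ligand of the same family as Lgi3, had no overlap between the groups, at 91.6 to 111.3 CPM in PTU and 85.3 to 91.2 CPM in PTU+TH.

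Kcna1 is also a marker of parvalbumin (PV) neurons, the fast-spiking cells of the cortex. Of 8 PV markers, Syt2, Nefh, Kcna1 and Ppargc1a were called, all higher in PTU+TH, and 6 of the 8 had positive fold changes. The summed level of the 8 ran from 3290 to 5850 CPM in PTU and from 4120 to 5310 CPM in PTU+TH, but most of it was Erbb4 (2890 to 5360 and 3640 to 4690 CPM; log2 fold change -0.07), so the sum does not describe the other 7. The part of these markers in the differences of Cntn2, Lgi3 and the channel subunits was not tested.

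The node, paranode and axon initial segment partners, the surroundings of Cntn1 and Cntnap1, had 0 of 8 called with edgeR, DESeq2 or limma voom, and 0 had an unadjusted edgeR p under 0.05. The ankyrins Ank3 and Ank2 and the spectrin Sptan1, the list's most counted genes, had log2 fold changes of 0.05, -0.04 and -0.06.

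Of 14 ligands and receptors that bind contactins, 1 was called, as lower. Ptprz1, the receptor phosphatase that binds Cntn1, stood at 507.4, 573.4, 563.4 and 576.8 CPM in the PTU libraries and at 354.1, 351.1, 346.3 and 386.0 CPM in PTU+TH. The groups were far apart (log2 fold change -0.63, SE 0.11, with an edgeR adjusted p of 0.00892), and without mouse 15 the adjusted p was 0.0519. Glia express Ptprz1 strongly, and their markers are given beside it. The summed astrocyte markers ran from 125 to 241 CPM in PTU and from 127 to 366 CPM in PTU+TH, and those of oligodendrocyte precursors from 8.27 to 24.0 and from 10.4 to 33.0 CPM, with 0 markers of either list called by edgeR, DESeq2 or limma voom and 0 at an unadjusted edgeR p under 0.05. Ptprg, the phosphatase that binds Cntn3 to Cntn6, Ncam1 and App had log2 fold changes of 0.08, 0.02 and -0.06. L1cam, an axonal adhesion molecule that was picked out after its values were seen, went from 258.1 ± 22.9 to 189.9 ± 18.2 CPM (SD, n = 4 each), which is a log2 fold change of -0.44 (SE 0.11, with an edgeR adjusted p of 0.0522, and 0.0145 with the length offset). The latter was 0.0584 without mouse 10 and 0.193 without both mice 15 and 16.

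Of 5 intracellular partners of contactin-associated proteins, 1 was called, as higher. The place of Gpsm2 and Pard3 in this list is the least certain. Mpp3, a membrane-associated scaffold, stood at 67.4, 61.2, 57.5 and 58.4 CPM in the PTU libraries and at 85.3, 82.8, 79.6 and 82.7 CPM in PTU+TH (log2 fold change 0.44, SE 0.08, with an edgeR adjusted p of 0.0137). It was lost without mouse 12 or mouse 13 (adjusted p of 0.0553 and 0.0502). With library totals as the only scaling, Mpp3, Kcna1 and Kcnab2 were not called (edgeR adjusted p of 0.127, 0.0512 and 0.0749). Kcnab2 was also lost with no filter on the counts (0.0624). Of the 5 partners called, Lgi3 was called without both mice 15 and 16, and the other 4 were lost (adjusted p of 0.405 for Kcna1, 0.263 for Kcnab2, 0.138 for Ptprz1 and 0.129 for Mpp3). Their log2 fold changes in that fit were 0.38 for Kcna1, 0.35 for Kcnab2, -0.65 for Ptprz1 and 0.46 for Mpp3. Cask, Pard3 and Mpdz had log2 fold changes of -0.05, 0.12 and -0.16. Gpsm2, also picked out after its values were seen, had 16.3, 14.8, 14.1 and 13.5 CPM in the PTU libraries and 22.01, 23.2, 22.1 and 17.2 CPM after TH, without overlap. Its log2 fold change of 0.53 (SE 0.13) had an edgeR adjusted p of 0.0528, one of 0.033 without mouse 9 and 0.0379 without mouse 16, and 0.112 to 0.17 without any other library. With the length offset the adjusted p was 0.0303, and it was 0.0722 to 0.105 without mouse 10, 11, 12, 13, 14 or 15.

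**Figure D5:**
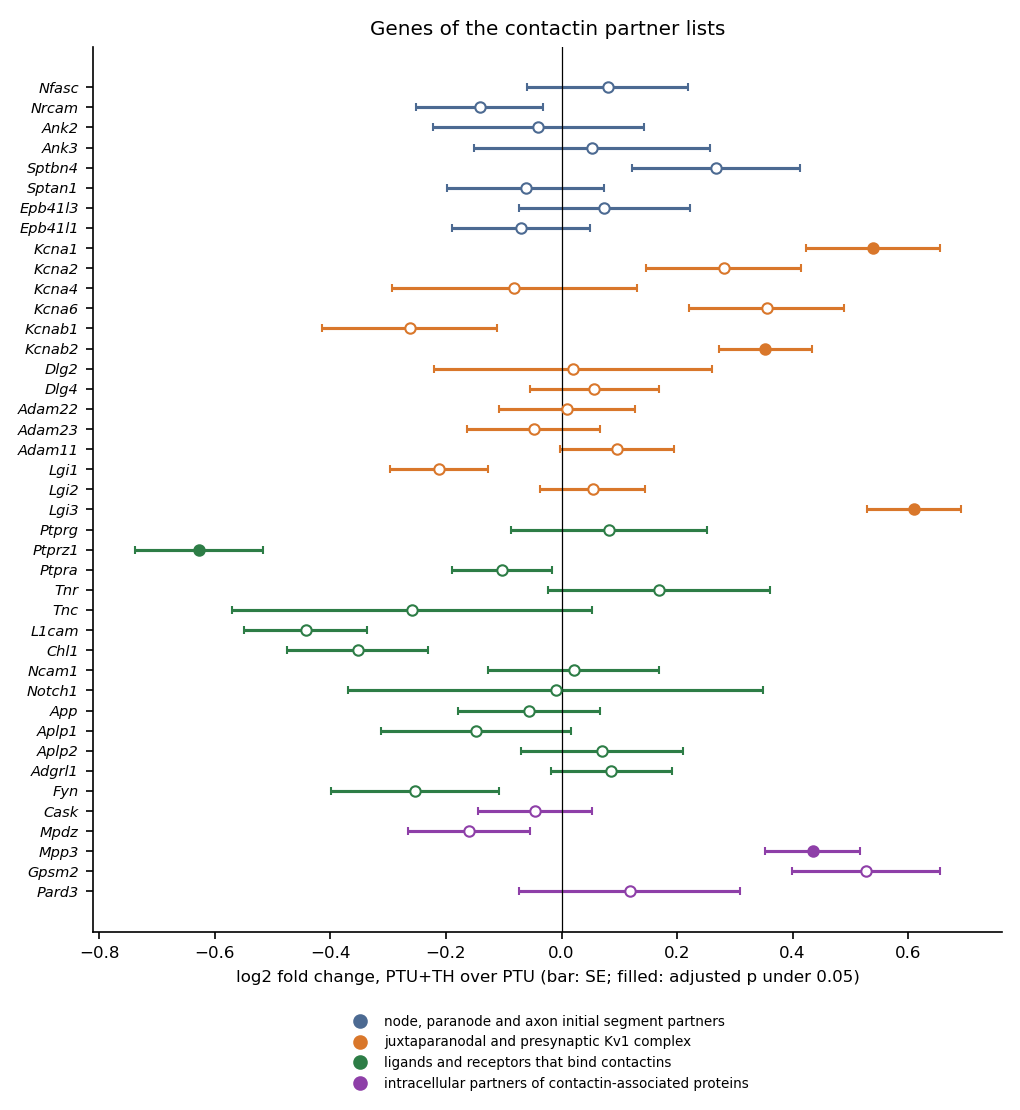
Log2 fold change of PTU+TH over PTU (x axis) for the 41 partner genes, coloured by list, with bars for the SE and filled points for an adjusted p under 0.05. Filled points to the right are Kcna1, Kcnab2, Lgi3 and Mpp3, and the filled point to the left is Ptprz1 at -0.63.

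The nuclei carried the markers of their label. The summed level of 8 GABAergic markers ran from 5040 to 6210 CPM in PTU and from 4870 to 5850 CPM in PTU+TH, against 37.9 to 110 and 45.5 to 121 CPM for 7 excitatory markers, 11.2 to 17.0 and 15.4 to 31.3 CPM for 7 microglial markers and 33.5 to 152 and 33.6 to 108 CPM for 6 endothelial markers. Among other interneuron classes, Calb1 of 6 SST markers and Htr3a of 7 VIP markers were lower and Gabrd of 6 LAMP5 markers was higher, with sums of 593 to 792 and 539 to 641 CPM, 419 to 536 and 412 to 425 CPM, and 1300 to 1430 and 1110 to 1330 CPM. Positive fold changes were seen in 2 of the 6 SST, 1 of the 7 VIP and 2 of the 6 LAMP5 markers. Dlx1, Gfap, Gpr17 and P2ry12 were at 0 in every library, and other genes overlap the whole body of each, so their 0 says nothing of the cells.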

How the data were processed

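Nuclear RNA of sorted cortical GABAergic nuclei was sequenced as 8 single-end libraries (SMART-Seq cDNA, Nextera XT), 1 per mouse, and the authors deposited raw read counts per gene symbol. Bowtie2 2.5.3 and build mm10/GRCm38 are given per the submitters' processing notes; the counter and its strand setting are not given in the sources used here. Symbols were identical to those of GENCODE M21 (55341). All 683 protein-coding genes lying inside other genes without sharing exon bases were at 0 in every library, against 21.5% of 11727 genes sharing no base with another, so the counts appear to cover gene bodies, introns included, and to leave out bases of overlapping genes.

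Counts were fitted with edgeR 4.0.16 in R 4.3.3 (filterByExpr, TMM scaling, robust quasi-likelihood, group as the only term), two-sided, with Benjamini-Hochberg adjustment over 17355 genes and calls at an adjusted p under 0.05. CPM used TMM-scaled totals. The SE of a log2 fold change was worked back from the test, as its absolute value over the square root of the quasi-likelihood F statistic. The length offset was a natural spline (5 degrees of freedom) of each library's log2 CPM deviation over log10 body length. Alternatives used DESeq2 1.42.0, limma 3.58.1 and sva 3.50.0, other scalings and filters, and left-out libraries. The script was tested on simulated counts. Libraries held 21.8 to 29.1 M counts, and 4 per group limit the precision. The labels do not speak of litters, so p-values cover only the spread between these mice.

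Members, lists and tests were chosen with earlier results of these data known. Named were all listed members, other Cntnap genes, called partners, up to 3 of the most counted other partners per list, the 3 genes most like a called member and, after their values were seen, Chl1, L1cam, Gpsm2, Lgi1, Kcnab1, Kcna2 and Kcna6.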

Additional observations from a re-analysis of the deposited data

How the results depend on the processing

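Of the 9 listed genes, 1 was called, and 3 with library totals only, 4 with DESeq2, 2 with no filter, 2 with a mean of at least 1 CPM, 3 with the length offset, 4 with 1 surrogate variable, 3 at an adjusted p under 0.1 and 0 once the 2 mice lacking Y-linked reads were left out (3 there at an unadjusted p under 0.05, beside 8.52% of all genes). Of all genes, 368 were called, and 256 with library totals only, 435 with no filter, 378 with a mean of at least 1 CPM, 748 with DESeq2, 660 with the length offset, 718 with 1 surrogate variable and 58 in those 6 libraries. Of the 41 partners, 5 were called, and 2 with library totals only, 8 with the length offset and 1 in the 6 libraries. Alternatives were added after seeing the data, the length offset with each library left out and the length offset in the 6 libraries, which called 217 genes, 2 listed genes and 2 partners. With 1 library left out, with or without the offset, 182 to 724 genes (182 to 499 without the offset), 1 to 3 listed genes and 2 to 7 partners were called. The cause of these shifts was not tested. Of the 18 other fits, 17 called Cntn2, 8 called Cntn3, 4 called Cntn4 and 2 called Cntnap1. No paired analysis was possible because no number is shared by a PTU and a PTU+TH mouse.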
